A study of Mus musculus with 2 samples.

Results

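The genes described here are 55 well-known genes of the cell division cycle, taken by symbol from 43346 mouse genes in the tables and grouped by the phase in which their products are known to act. There were 16 genes of G1, 16 of replication licensing and S phase, and 23 of G2 and mitosis. All 55 were found, and all passed a filter of a mean of 1 TPM and 100 summed reads that left 13975 genes for comparison. The material was whole forebrain of B6NCrl mouse embryos of mixed sex at embryonic day 15.5, untreated and with no genetic change named in the labels. There was 1 group of 2 libraries of total RNA longer than 200 nucleotides, each from 10 ng of RNA. Replicate 1 pooled 78 embryos, and replicate 2 pooled 62. Dividing cells were not isolated, so levels are averages over progenitors, neurons and all other cells of the tissue. In such a bulk sample, fewer cells of a type and less RNA per cell cannot be told apart.

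A cell enters the cycle when D-type cyclins, with Cdk4 or Cdk6, phosphorylate the retinoblastoma protein and its relatives, which releases E2F transcription factors; CDK inhibitors hold this step back. E2F factors drive the genes that load the MCM helicase on DNA and make nucleotides for replication. Later genes of G2 and mitosis, headed by cyclin B and Cdk1, are known to be held off and then switched on through promoter elements read by the DREAM and MuvB complexes, while the factor NF-Y binds a nearby box. In the embryonic forebrain the dividing cells are radial glia beside the ventricle and the intermediate progenitors that arise from them, whereas neurons have left the cycle.

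Elements of these kinds can be looked for in promoter sequences, and 6 promoters are shown first because they hold the motifs by which the phases differed. Each line is the sequence up to 150 bases before the RefSeq start of the gene on GRCm38.p6 (the mm10 assembly), 5′ to 3′ on the gene's strand, cut before the first base that GENCODE M21 annotates as exon. Shown are the 3 most abundant G2 and mitosis genes whose stretch holds both a CCAAT box (CCAAT) and a cell cycle genes homology region, or CHR (TTTGAA or TTTAAA), the 2 most abundant licensing and S genes with an E2F site (TTTCGCGC, TTTGGCGC or TTCCCGCC), and the most abundant such G1 gene. Capitals mark these motifs on either strand, so that a CCAAT box on the opposite strand reads ATTGG.
Cdk1, chr10:69352939-69353062, minus strand: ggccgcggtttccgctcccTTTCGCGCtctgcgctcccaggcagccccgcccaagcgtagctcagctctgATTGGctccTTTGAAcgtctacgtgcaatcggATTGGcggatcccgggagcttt
Top2a, chr11:99024190-99024339, minus strand: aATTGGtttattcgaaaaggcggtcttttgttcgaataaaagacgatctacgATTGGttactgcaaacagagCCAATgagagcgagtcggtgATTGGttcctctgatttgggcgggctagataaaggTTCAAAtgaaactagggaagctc
Cdc20, chr4:118437353-118437493, minus strand: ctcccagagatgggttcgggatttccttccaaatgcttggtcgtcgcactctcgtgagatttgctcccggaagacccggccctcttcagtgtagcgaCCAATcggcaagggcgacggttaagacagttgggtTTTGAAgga
Mcm6, chr1:128359706-128359855, minus strand: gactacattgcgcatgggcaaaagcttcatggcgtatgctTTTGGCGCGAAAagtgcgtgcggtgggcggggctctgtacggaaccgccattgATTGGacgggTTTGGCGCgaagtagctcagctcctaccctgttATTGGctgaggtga
Rrm1, chr7:102441545-102441694, plus strand: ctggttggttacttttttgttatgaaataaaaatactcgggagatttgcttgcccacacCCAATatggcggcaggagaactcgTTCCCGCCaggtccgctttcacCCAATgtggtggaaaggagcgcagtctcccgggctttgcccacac
Rbl1, chr2:157204535-157204684, minus strand: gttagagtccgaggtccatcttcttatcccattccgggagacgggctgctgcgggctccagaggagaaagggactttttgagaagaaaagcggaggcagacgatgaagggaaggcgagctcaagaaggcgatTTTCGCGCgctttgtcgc
In the stretch of Top2a, which encodes the topoisomerase that untangles sister DNA, 4 CCAAT boxes precede a CHR that begins 23 bases before the start. In Cdc20, the activator of the anaphase-promoting complex, a CHR begins 18 bases before the start and a CCAAT box 53 bases before it. Cdk1, the mitotic kinase, has CCAAT boxes beginning 80 and 48 bases before its start, with a CHR between them at 71. Outside the stretch shown, the wider window searched below held another Cdk1 CHR at 15 bases before the start and a CCAAT box at 208. That window held 6 CCAAT boxes and 2 CHRs in Top2a, and 2 CCAAT boxes in Cdc20. Of the 19 G2 and mitosis members with a promoter to search, Cdk1 alone had an E2F site, 131 bases before the start. In Mcm6 the E2F words at 110 and 106 bases before the start overlap, and another lies at 47. Rrm1, a subunit of ribonucleotide reductase, holds an E2F site at 67 between 2 CCAAT boxes, and Rbl1, which encodes the Rb relative p107, holds one at 18.

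Promoter windows from 250 bases before to 50 after the start were available for 45 of the 55 members: 12 of G1, 14 of licensing and S, and 19 of G2 and mitosis. In 39 of the 45, the RefSeq start lay within 100 bases of the start of the gene's leading coding transcript. It lay further off in Mcm7 (539 bases), E2f1 (466), Cdkn2c (433), Pttg1 (270), Pcna (134) and Cenpa (109). The windows of these genes may not match the start used here, and they are included in the shares. A CHR was present in 15 of 19 G2 and mitosis promoters (78.9%, Wilson 95% interval 56.7 to 91.5%), in 4 of 14 of licensing and S (28.6%, 11.7 to 54.6%) and in 3 of 12 of G1 (25%, 8.89 to 53.2%). Among the windows of 10298 coding genes of at least 1 TPM in this tissue the share was 18.1%, and among all 16263 coding genes matched it was 24.2%. Most mitotic promoters thus held a CHR, while the G1 and S intervals both reached down to the share of all genes.

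E2F sites followed another order. They were found in 8 of 14 licensing and S promoters (57.1%, 32.6 to 78.6%), in 2 of 12 of G1 (16.7%, 4.70 to 44.8%) and in 1 of 19 of G2 and mitosis (5.26%, 0.935 to 24.6%), against 5.61% of the 10298 windows. Mcm3, Mcm5, Mcm6 and Mcm7 of the helicase held one, as did the licensing factor gene Cdt1, the primase and polymerase alpha genes Prim1 and Pola1, and Rrm1. Of these, the window of Mcm7 was the one set 539 bases from the leading start. CCAAT boxes were common to both later phases: 11 of 14 licensing and S promoters (78.6%) and 16 of 19 of G2 and mitosis (84.2%) had one, against 5 of 12 of G1 (41.7%) and 39.0% of the 10298.

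Pairs of CCAAT boxes on the same strand whose first bases lay 31 to 33 bases apart, a spacing looked for after the positions were seen, occurred in 6 of 19 G2 and mitosis promoters (31.6%). These were Aurka, Ccnb1, Ccnb2, Cdk1, Hmmr and Ube2c. Such a pair was in 0 of 14 licensing and S promoters, 0 of 12 of G1 and 170 of the 10298 windows (1.65%). Since the spacing was chosen on these promoters, the count is a description only. In further genes of the same phases, listed below, such a pair was in 1 of 26 G2 and mitosis windows (3.85%), 2 of 28 S-phase windows (7.14%) and 1 of 12 G1 windows (8.33%), so it was not common among the mitotic genes outside the members. Of the same further G2 and mitosis windows 18 of 26 held a CHR (69.2%), 1 an E2F site (3.85%) and 17 a CCAAT box (65.4%). Of the S-phase windows 8 of 28 held an E2F site (28.6%), 5 a CHR (17.9%) and 13 a CCAAT box (46.4%, against 78.6% in the members). Of the G1 windows 6 of 12 held a CHR (50%), 3 an E2F site (25%) and 5 a CCAAT box (41.7%). From 100 bases before to 50 after the start, a CHR was in 2 of 12 further G1 genes (16.7%). The same narrower window held one in 4 of 28 further S genes (14.3%) and 16 of 26 further G2 and mitosis genes (61.5%). A motif match is a description of the letters in the window and does not show that a factor was bound. TTTAAA is its own reverse complement and was counted once per promoter.

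**Figure D1:**
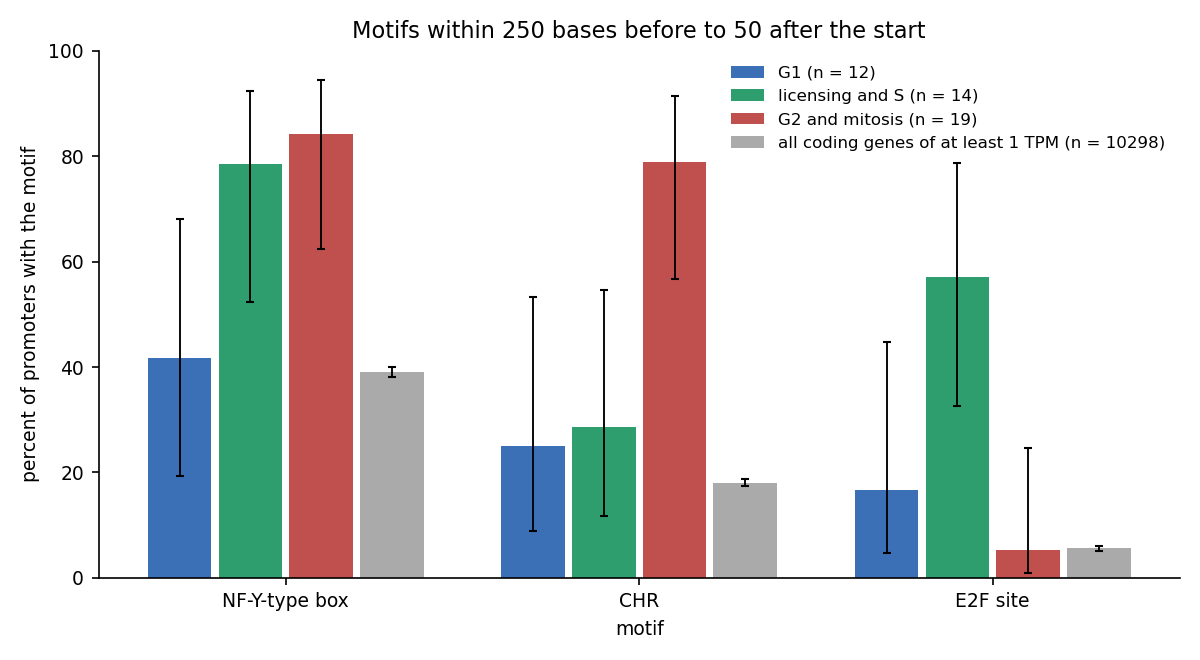
Percent of promoter windows with each motif on the y axis, for the members of each phase and for 10298 coding genes of at least 1 TPM; the NF-Y-type box is the CCAAT box, and error bars are Wilson 95% intervals. The CHR is in 78.9% of G2 and mitosis windows and the E2F site in 57.1% of licensing and S windows, against 18.1% and 5.61% of all these genes.

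Levels are given as TPM, the relative abundance of transcripts in a library, which corrects for transcript length, first in replicate 1 and then in replicate 2, or as mean ± SD (n = 2). Every member was above 1 TPM in both libraries, 51 of 55 were at 10 TPM or more in both (65.6% of the genes compared), and 10 were at 100 or more (12.2%). The median member stood at 44.6 TPM, against 19.6 TPM for all genes compared. By phase, the median level was 24.9 and 28.9 TPM for G1, 48.0 and 51.0 TPM for licensing and S, and 41.7 and 47.1 TPM for G2 and mitosis. On the log2(TPM + 0.1) scale, from medians of the mean TPM, licensing and S lay above G1 by 0.95 (0.95 and 0.82 in the single libraries), and G2 and mitosis above G1 by 0.86 (0.75 and 0.71). G2 and mitosis differed from licensing and S by -0.09 (-0.20 and -0.11), a sign that turned to 0.03 when means over members replaced medians. With means, the other differences shrank to 0.45 and 0.48, and the G1 list held the most and the least abundant of all 55 genes, Cdk4 and E2f3. With 2 libraries of 1 group no test across samples was made, since the smallest p of a two-sided exact sign-flip test is 0.5, and differences are set against the spread of the libraries.

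**Figure D2:**
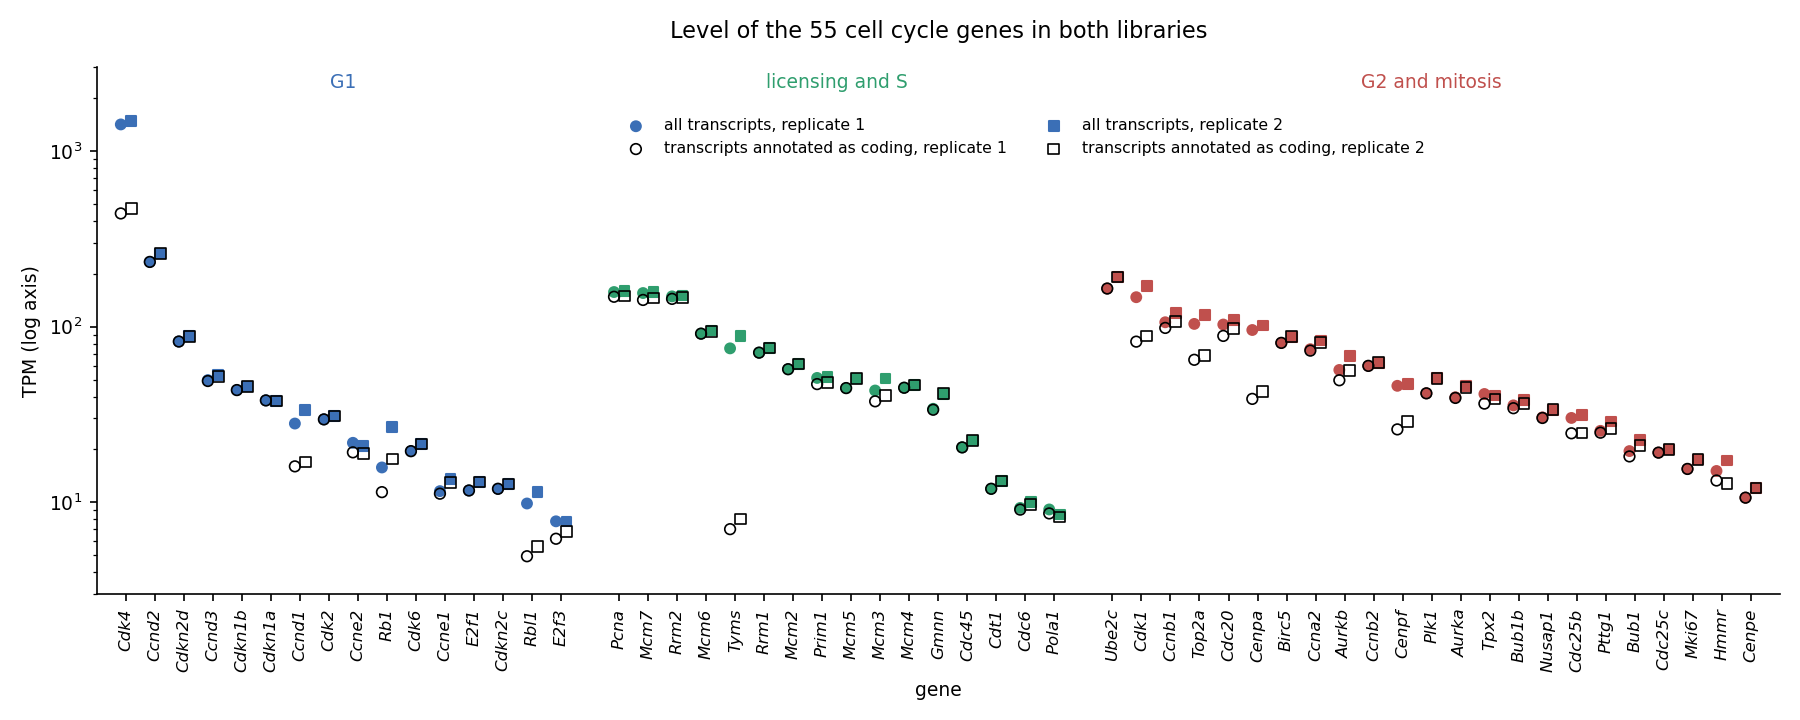
TPM on a log axis for each member, ordered by mean within its phase; filled symbols are the gene's total, open symbols the sum over transcripts annotated as coding, circles replicate 1 and squares replicate 2. Most open symbols lie on or near the filled ones, while Tyms, Cdk4, Cenpa, Rbl1, Ccnd1 and Cdk1 show the widest gaps.

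Among the G1 activators, Cdk4 was listed far above all others, at 1420 and 1483 TPM. Its sister kinase Cdk6 stood at 19.5 and 21.5 TPM. Cyclin D2 was the main D-type cyclin: Ccnd2 was at 234 and 261 TPM, Ccnd3 at 49.6 and 53.2, and Ccnd1 at 28.1 and 33.4. The order of the 3 cyclins was the same in both libraries, and none overlapped its neighbour. Ccnd2 exceeded Ccnd1 by 3.01 ± 0.07 on the log2 scale (SD of the 2 libraries), or 8.05-fold, and Ccnd1 lay below Ccnd3 by 0.74 ± 0.11 (-0.74 as Ccnd1 minus Ccnd3, and -1.62 on coding transcripts alone). Of the next kinase complex, cyclin E with Cdk2, no gene reached the level of Ccnd3: Cdk2 was at 29.64 and 31.02 TPM, Ccne2 at 21.8 and 20.9, and Ccne1 at 11.6 and 13.6. Cdk2 overlapped Ccnd1 across the libraries, and Ccne2 overlapped Cdk6.

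The CDK inhibitors spanned a wide range. Cdkn2d, which encodes p19 of the INK4 family that binds Cdk4 and Cdk6, was the highest of the 4 among the members by TPM, at 82.3 and 88.2. Its relative Cdkn2c was at 11.9 and 12.7 TPM, lower by 2.79 ± 0.01 on the log2 scale (-2.79 as Cdkn2c minus Cdkn2d). Cdkn1b, encoding p27, was at 43.5 and 45.6 TPM, and Cdkn1a, encoding p21 and known as a target of p53, was close at 38.0 and 37.8 TPM. The difference of this pair was 0.23 ± 0.05. In TPM it was the smallest among 14 pairs of related members, all of which differed by more than the SD of the libraries; in reads without length correction (CPM) it was 1.77, and other pairs were closer. In CPM Cdkn1b was also above Cdkn2d, at 72.9 and 76.0 against 58.3 and 63.3. The inhibitor gene Cdkn1c of the further G1 list, at 80.9 and 84.4 TPM, overlapped Cdkn2d across the libraries. From the same list, Cdkn2a, the gene of p16 and p19ARF, had no reads in either library (0 in each). Taking 3 reads as the limit, up to 0.166 and 0.180 TPM could have been missed by counting error alone.

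The 4 pocket protein and E2F genes among the members, which the kinases act on, were the least abundant group of members by TPM, with a median of 11.5 TPM. Their relatives in the further G1 list ranged from E2f2 at a mean of 4.70 TPM to E2f4 at 35.2, so the low median holds for the members listed. In CPM, Cdc6 at 16.6 and 17.9 and Cdt1 at 15.1 and 16.9 were below all 4 in each library. Cdc45, at 23.0 and 25.4 CPM, was above all of them but Rb1. Rb1 was at 15.8 and 26.8 TPM, Rbl1 at 9.83 and 11.5, E2f1 at 11.7 and 13.0, and E2f3 at 7.78 and 7.76. E2f1 exceeded E2f3 in both libraries, by 0.67 ± 0.12 on the log2 scale (0.12 in CPM). The ratio of Rb1 to Rbl1 was uneven between the libraries, at 0.68 and 1.22 on the log2 scale, and this came from Rb1, which is taken up with the pools below.

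In the licensing and S list, the median of the 6 genes of nucleotides and DNA synthesis was 77.5 TPM. That of Cdc6, Cdt1, Gmnn and Cdc45, grouped by loading of the helicase, was 17.0 TPM. On coding transcripts the medians were 60.4 and 17.0 TPM. The order did not hold gene by gene in TPM, since Pola1 was the lowest of the list by total TPM. In CPM Pola1, at 27.9 and 27.0, was above all 4 loading genes, of which Cdc45 was the highest at 23.0 and 25.4. Pcna, the sliding clamp of the DNA polymerases, was at 158 and 159 TPM, and Rrm2, the regulated subunit of ribonucleotide reductase, at 149 and 151, against 71.1 and 75.5 for its partner Rrm1 (a log2 difference of 1.03 in TPM and 0.07 in CPM). Prim1, the catalytic primase subunit, stood at 51.1 and 51.4 TPM, while Pola1, the catalytic subunit of the polymerase alpha complex in which primase works, was at 9.09 and 8.52. The loading factors among the members were low: Cdc6 was at 9.27 and 9.98 TPM, Cdt1 at 11.9 and 13.2, and Cdc45, which activates the loaded helicase, at 20.5 and 22.5. Origin recognition genes of the further S list ranged from Orc1 at a mean of 2.45 TPM to Orc4 at 85.2. Gmnn, the inhibitor of Cdt1, was at 34.1 and 41.6 TPM, above Cdt1 by 1.59 ± 0.10 on the log2 scale, or 3.01-fold (0.31 in CPM).

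The 6 subunits Mcm2 to Mcm7 form the helicase ring with 1 copy of each, but their RNA levels were not equal. Mcm7 was at 155 and 158 TPM and Mcm6 at 91.2 and 95.1, followed by Mcm2 at 57.2 and 61.4. Mcm5 was at 44.7 and 50.6 TPM, Mcm3 at 43.3 and 50.6, and Mcm4 at 44.9 and 46.5. The last 3 overlapped across the libraries, while Mcm7, Mcm6 and Mcm2 each stood apart from the next. The distance from the highest to the lowest subunit was 1.78 ± 0.06 on the log2 scale, or 3.43-fold. Mcm7 overlaps Cops6 on the opposite strand, which was at 239 and 242 TPM, and it is unknown whether the counting used strand, so its excess is uncertain. The same holds for Ccna2 beside Exosc9 (mean 73.2 TPM), Cdc45 beside Ufd1 (96.9 TPM), Ccne2 beside Ints8 (40.6 TPM), Ccnd1 beside LTO1 (29.5 TPM) and Ccnd3 beside Bysl (27.5 TPM), all on opposite strands.

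All 23 genes of G2 and mitosis were at 10 TPM or more in both libraries. Ube2c, the E2 enzyme of the anaphase-promoting complex, led at 165 and 192 TPM, followed by Cdk1 at 147 and 170 and Ccnb1, the gene of cyclin B1, at 106 and 119. Ccnb2 was at 59.8 and 62.4 TPM, below Ccnb1 in each library (0.88 ± 0.08 for Ccnb1 minus Ccnb2 on the log2 scale), and Ccna2, encoding cyclin A2, was at 74.4 and 83.5. Of the phosphatases that activate Cdk1, Cdc25b was at 30.2 and 31.3 TPM and Cdc25c at 19.2 and 20.0. The kinases of mitotic entry and chromosome alignment were of middle abundance: Aurkb was at 56.7 and 67.7 TPM, Aurka at 39.6 and 45.8, and Plk1 at 41.7 and 50.9. Aurka and Plk1 overlapped, and Aurkb was above both in each library.

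The passenger protein gene Birc5 (survivin) was at 80.9 and 87.7 TPM. The spindle checkpoint genes Bub1b and Bub1 were at 35.6 and 38.1, and at 19.6 and 22.6 TPM. Anaphase genes were Cdc20, at 103 and 110 TPM, and Pttg1, which encodes securin, at 25.5 and 28.8. Mki67, whose protein Ki-67 is the usual stain for dividing cells, was among the lowest of the list at 15.5 and 17.5 TPM, although it had 3611 and 3761 reads, as its message is long. Top2a stood at 104 and 116 TPM, Cenpf at 46.0 and 47.1, the spindle genes Tpx2 at 41.4 and 40.5 and Nusap1 at 30.4 and 33.6, and the kinetochore motor gene Cenpe at 10.6 and 12.1.

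For many of these genes the total hides which transcript was counted. In 38 of 55 members at least 90% of TPM came in both libraries from transcripts annotated as protein-coding in M21, and the median member had 97.6%, against 97.9% for the 12838 coding genes compared. In 8 members, however, less than 70% was coding in both libraries: Tyms, Cdk4, Cenpa, Rbl1, Cdk1, Cenpf, Ccnd1 and Top2a. The same was true of 16.1% of the coding genes compared, so such genes were not more common among the members. For 3 of the 8 the highest transcript by TPM was not a coding one: Cdk4, Tyms and Cenpa. By estimated reads this was so only for Tyms.

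Cdk4 (chr10:127063534-127067920, plus strand) is the case that matters most for its level. Coding transcripts held 442 and 470 TPM, which is 31.1 and 31.7% of the total. The highest transcript was Cdk4-209, a retained intron form of 468 bases, at 570 and 595 TPM. Cdk4-208, annotated as a target of nonsense-mediated decay, followed at 277 and 286 TPM, the coding Cdk4-205 of 950 bases at 275 and 298, and Cdk4-201 of 2053 bases at 113 and 114. The split was nearly the same in both libraries. Of the 468 bases of Cdk4-209, 443 also lie in exons of coding transcripts, and only 25, at its 5′ end inside an intron, do not. Counting coding transcripts alone, Cdk4 still exceeded Cdk6, by 22.3-fold in place of 70.8-fold, and it remained the highest of the 55. Cdk4 also overlaps Tspan31 on the opposite strand, which was at 88.5 and 87.7 TPM.

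Borders of this kind between intron and exon are shown, because the bases in capitals are all that separates these short transcripts from the coding ones at that border. Each was read from the M21 transcript sequence (mm10) and runs 5′ to 3′, with bases outside every coding exon of the gene in capitals and 25 bases of the adjoining exon in lower case. M21 gives the 3 transcripts shown the lengths that the deposited tables give.
Cdk4-209, chr10:127066076-127066125, plus strand: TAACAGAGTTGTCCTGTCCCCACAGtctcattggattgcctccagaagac
Ccnd1-202, chr7:144938078-144938197, minus strand: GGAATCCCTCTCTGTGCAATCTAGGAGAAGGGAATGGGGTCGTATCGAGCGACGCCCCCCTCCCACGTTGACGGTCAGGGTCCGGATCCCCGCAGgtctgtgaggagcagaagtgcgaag
Cdk1-204, chr10:69345005-69345085, minus strand: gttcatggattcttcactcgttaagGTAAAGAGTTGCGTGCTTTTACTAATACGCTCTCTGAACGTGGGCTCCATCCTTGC
Cdk4-209 holds 25 private bases and Ccnd1-202 holds 95, both just upstream of a coding exon. Cdk1-204 reads 56 bases past the end of one.

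In Ccnd1 (chr7:144929931-144939925, minus strand), the retained intron form Ccnd1-202 of 470 bases had 105 and 132 estimated reads, yet it made up 43.0 and 49.4% of the gene's TPM, because TPM divides by length. The coding Ccnd1-201 held 92.9 and 91.0% of the reads and 16.0 and 16.9 TPM. On coding transcripts, Ccnd2 exceeded Ccnd1 by 3.91 ± 0.06 on the log2 scale, or 15.0-fold, in place of 8.05-fold. In Cdk1 (chr10:69335146-69352938, minus strand), coding transcripts held 82.2 and 88.7 TPM, which is 55.8 and 52.0% of TPM but 82.0 and 79.7% of reads. The short forms Cdk1-204 and Cdk1-203 had 22.8 and 24.4%, and 20.7 and 22.6%, of TPM. Top2a held 62.5 and 59.1% coding by TPM and 92.2 and 91.2% by reads, and Cenpf 56.5 and 61.0% by TPM and 91.8 and 92.3% by reads. For these 4 genes the coding share was thus much higher by reads than by TPM.

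Tyms (chr5:30058202-30073617, minus strand), the gene of thymidylate synthase, which makes the thymidine nucleotide, differed from them. Of its 75.2 and 88.1 TPM only 7.02 and 8.01 were coding, or 9.32 and 9.09%, and by reads the coding share was still only 22.6 and 22.4%. Its leading transcript was Tyms-205, annotated as a target of nonsense-mediated decay, with 40.5 and 43.2% of TPM, followed by the retained intron forms Tyms-202 and Tyms-206. Counted by coding transcripts, Tyms was the lowest gene of the licensing and S list. In Cenpa (chr5:30666777-30674830, plus strand), the gene of the centromeric histone H3 variant, the nonsense-mediated decay form Cenpa-202 held 45.1 and 44.8% of TPM and the coding Cenpa-205 39.2 and 40.6%. The coding share of reads was 44.9 and 46.4%, so here too counting reads did not restore it. Rbl1 had 50.1 and 48.9% coding TPM. Lengths differ between M21 and the deposited tables for Tyms-205 (618 and 797 bases), Tyms-206 (2723 and 2045) and Cenpa-202 (1031 and 1151). No sequence of them is given for that reason. Their M21 types, and so the coding shares of Tyms and Cenpa, may not hold for the models that were counted.

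**Figure D3:**
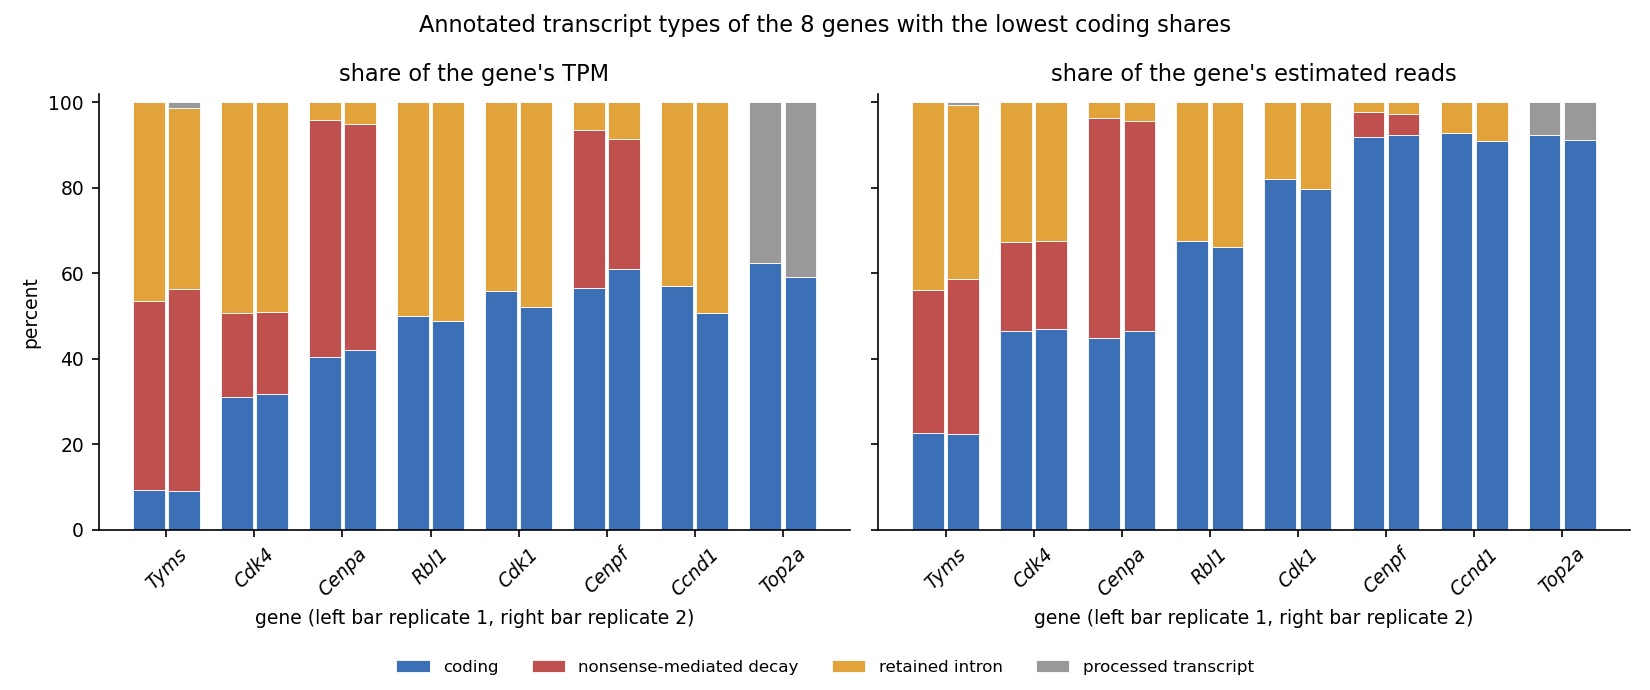
Percent of TPM (left panel) and of estimated reads (right panel) by annotated transcript type for the 8 members with under 70% coding TPM, left bar replicate 1 and right bar replicate 2. By reads Cenpf, Ccnd1 and Top2a are over 90% coding, while Tyms stays at 22.6 and 22.4%.

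The last comparison is between the pools of embryos. The ratio was taken as log2 of reads in replicate 2 over replicate 1, scaled by trimmed means (TMM), with exact binomial 95% intervals that cover counting error only. Of the 55 members 53 were higher in replicate 2 by any amount, against 50.9% of all 13975 genes compared, and 2 were lower, against 49.1%. By over 1.1-fold, 28 of 55 were higher, while 14.5% of all genes were; 0 of 55 were lower by that much, while 14.1% of all genes were. The shift was small and broad: the median log2 ratio was 0.14 in G1, 0.11 in licensing and S, and 0.15 in G2 and mitosis, where 23 of 23 genes were higher, with 0.00 for all genes. The count over 1.1-fold was 8 of 16, 6 of 16 and 14 of 23 in these lists. From the deposited TPM it was 25 of 55 in all, against 14.3% of all genes. Scaling by the spike-ins placed 55 of 55 members over 1.1-fold, but 71.0% of all genes as well, with the median of all genes at 0.20 and of the members at 0.34.

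**Figure D4:**
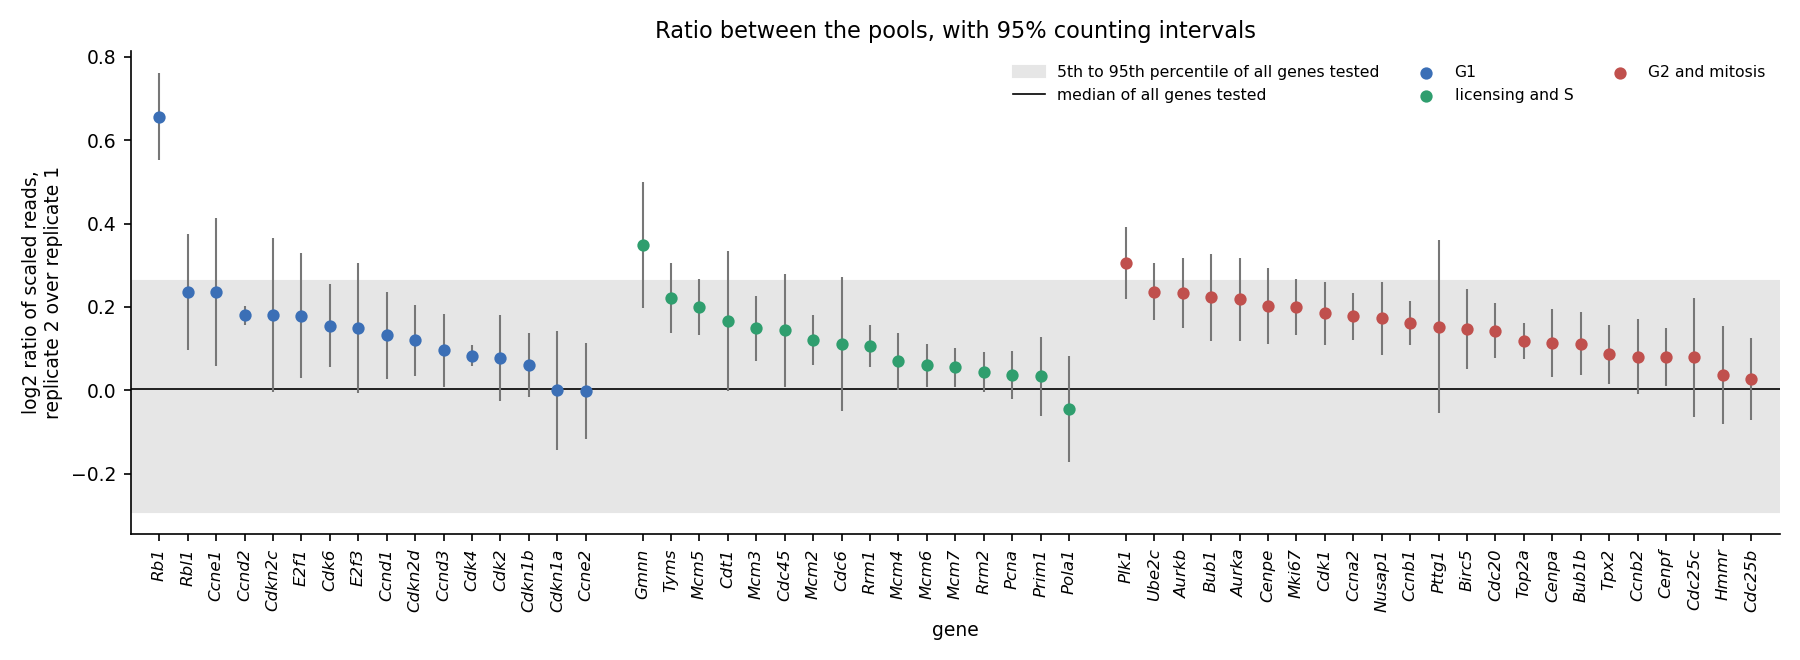
Log2 ratio of scaled reads, replicate 2 over replicate 1, for each member, with 95% counting intervals; the grey band spans the 5th to 95th percentile of all genes compared (-0.29 to 0.26) and the line is their median. All but Ccne2 and Pola1 lie above 0, Cdkn1a by only 8.3e-05, and Rb1 stands alone at 0.66.

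Rb1 (chr14:73183673-73325822, minus strand) had the largest ratio, at 0.66 with an interval of 0.55 to 0.76, from 1261 and 1803 reads. Its coding transcript Rb1-201 was at 11.4 and 17.6 TPM, from 1217 and 1728 estimated reads. The short form Rb1-202 was at 2.07 and 5.94 TPM, from only 15.1 and 39.8 estimated reads. Rcbtb2 and Lpar6, which overlap Rb1 on the opposite strand, were at 75.2 and 72.8 TPM and at 4.10 and 4.06, so they did not share its difference. Gmnn followed at 0.35 (0.20 to 0.50), Plk1 at 0.31 (0.22 to 0.39), and then Ube2c, Rbl1 and Ccne1, each at 0.24, with Aurkb next at 0.23 (0.15 to 0.32). At the other end were Pola1 at -0.04 (-0.17 to 0.08), Ccne2 at 0.00 (-0.12 to 0.11) and Cdkn1a at 0.00 (-0.14 to 0.14). Cdkn1a is counted as higher at a log2 ratio of 8.3e-05. Intervals of other members, such as Pcna (-0.02 to 0.09) and Rrm2 (-0.01 to 0.09), also included 0. The most deeply counted member, Ccnd2, with 30658 and 31491 reads, had a ratio of 0.18 (0.16 to 0.20), and Cdk4, with 25771 and 24737 reads, had 0.08 (0.06 to 0.11). Each of these intervals leaves out the variation between pools, for which 2 libraries give no separate estimate.

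Further S and mitotic genes were also mostly higher in replicate 2, while further G1 genes stood near the share of all genes. Of 86 further genes, 84 passed the filter, and 69 of these were higher in replicate 2, with 28 over 1.1-fold higher (14.5% of all genes) and 2 lower by that much (14.1%). In further G1 genes 8 of 14 were higher, against 50.9% of all genes, and 2 of 14 over 1.1-fold. In further S genes these counts were 31 and 11 of 36, and in further G2 and mitosis genes 30 and 15 of 34. The median was 0.04 in further G1 genes, 0.11 in further S genes and 0.12 in further G2 and mitosis genes. The highest of these lists by level were Tfdp1, the E2F partner, at 122 and 120 TPM, and the cyclin H gene Ccnh at 92.5 and 89.6; Slbp, the histone message binding protein, at 110 and 121, and the clamp loader gene Rfc2 at 108 and 105; and the checkpoint gene Bub3 at 156 and 156 and Cks1b, encoding a subunit of CDK complexes, at 137 and 162. The lowest were Cdkn2a, the origin recognition gene Orc1 at 2.62 and 2.28, and the separase gene Espl1 at 5.72 and 6.79 TPM.

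Cell type markers moved as well, and their part in the result was not tested. Of all genes compared, 50.9% were higher in replicate 2 by any amount and 49.1% were lower. All 5 markers of intermediate progenitors were higher in replicate 2 (summed level 287 and 335 TPM, median log2 ratio 0.23), among them Eomes at 23.4 and 28.0 TPM and Neurog2 at 74.4 and 92.0. All 4 telencephalic markers were higher too (236 and 263 TPM, median 0.23). Radial glial markers were split, 5 of 8 higher (2139 and 2007 TPM, median 0.06), and Fabp7, at 1345 and 1202 TPM, made up most of their sum. Neuronal markers stood near 0, with 2 of 6 higher (3799 and 3735 TPM, median -0.02). Choroid plexus markers were lower, with all 4 that passed the filter below 0 (summed level of all 5 markers 821 and 365 TPM), led by Ttr at 761 and 331 TPM. The summed levels were 8638 and 8033 TPM for erythroid markers, 135 and 143 for endothelial, 65.3 and 65.7 for microglial, 146 and 154 for mesenchymal and 44.2 and 39.5 for oligodendrocyte precursor markers. The median of the neuronal markers, 488 TPM, was far above that of radial glia at 70.7 and of intermediate progenitors at 60.5. Single radial glial and neuronal markers overlapped in level. The radial glial ones ranged from Hes1 at 14.6 to Fabp7 at 1274 TPM, and the neuronal ones from Dcx at 292 to Tubb3 at 1509. The levels of the 55 genes describe the tissue as a whole, not isolated progenitors.

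**Figure D5:**
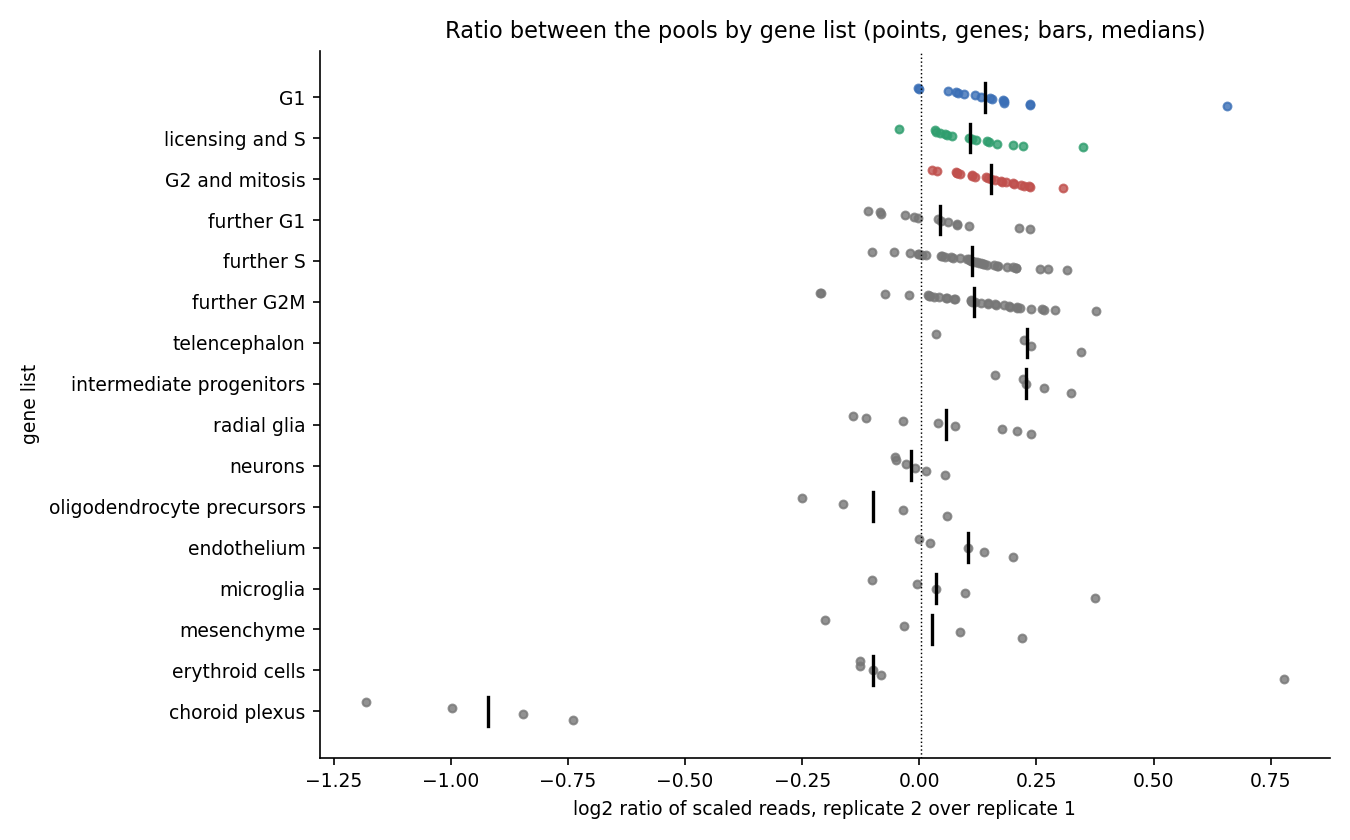
Log2 ratio of scaled reads, replicate 2 over replicate 1 (x axis), for each gene of each list that passed the filter (y axis); points are genes, bars are list medians and the dotted line is the median of all genes compared. The 3 phase lists lie to the right of the line with medians of 0.14, 0.11 and 0.15, intermediate progenitor markers further right, and choroid plexus markers far to the left.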

How the data were processed

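Total RNA of 2 libraries of 1 group was compared. Per the notes deposited with the files, the assembly was mm10, the annotation GENCODE M4, and values come from transcriptome alignments. Which strand setting, aligner and quantifier were used is not stated. The authors deposited expected counts, that is, estimates of reads for each gene or transcript, which summed to 38720511 and 35103430. The deposited TPM values, as maximum-likelihood and posterior mean estimates, scale them by effective length over all features, spike-ins included. Deposited percent values are shares of transcripts within genes. They rest on how reads common to several transcripts were divided, and short transcripts gain TPM from few reads.

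Of 69691 features 43346 were mouse genes; symbols were joined by identifier for 42462 (98.0%). Transcript names, types and coordinates are from GENCODE M21, whose models differ from M4; all 235 member transcripts matched. Promoters are from RefSeq; of 2 entries, the one nearest the start of the leading coding transcript was taken. Coding levels sum transcripts annotated as protein-coding. Levels are medians of log2(TPM + 0.1). For ratios, expected counts were rounded, scaled by TMM (edgeR 4.0.16, R 4.3.3; features of 10 or more reads), with 0.5 reads added; the step was tested on simulated data. Alternatives used DESeq2 1.42.0 size factors, spike-ins, TPM, CPM, no filter and single libraries. Scripts ran in Python 3.11.15 with scipy 1.17.1, pandas 2.3.3, numpy 2.4.6 and matplotlib 3.10.9.

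The labels name the libraries biological replicates from separate numbers of embryos. All 55 members are named, and from 3 further lists (86 genes) the 2 highest and the lowest; other names were chosen after their values were seen. The members and lists were chosen with earlier results of these data known.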

Additional observations from a re-analysis of the deposited data

How the results depend on the processing

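No paired analysis was possible because there was 1 group. With coding transcripts only, an alternative chosen after seeing the data, licensing and S lay above G1 by 1.23 (log2), G2 and mitosis above G1 by 1.04 and below licensing and S by 0.19 (-0.19), and the range of Mcm2 to Mcm7 was 1.88, with Mcm3 lowest. Using CPM, which lacks length correction, these were 1.05, 0.64, -0.41 and 1.49. With means over members they were 0.45 and 0.48, with a reversal to 0.03 (0.026) for G2 and mitosis against licensing and S; posterior mean TPM gave 0.81 for G2 and mitosis over G1. Leaving out 1 library gave 0.82 to 0.95 for licensing and S over G1, 0.71 to 0.75 for G2 and mitosis over G1, -0.20 to -0.11 for G2 and mitosis over licensing and S, and 1.76 to 1.85 for the Mcm range. Spike-in scaling raised the median log2 ratio of all genes to 0.20 and of the members to 0.34 (G1 0.34, licensing and S 0.31, G2 and mitosis 0.35), with 55 of 55 members over 1.1-fold higher (16, 16 and 23), against 71.0% of all genes. Members led by a non-coding transcript numbered 3 by TPM and 1 by reads. DESeq2 size factors and coding reads left the counts of members within 1.5 times, and all members pass the filter. Without the filter 29.3% of all genes were over 1.1-fold higher, and of coding genes at 10 TPM or more 9.14%, against 14.5%. In a window of 100 bases before to 50 after the start, a CHR was in 73.7% of G2 and mitosis promoters, against 6.75% of 10298, and an E2F site in 42.9% of licensing and S promoters, against 3.01%. Of the 14 pairs none reversed under any alternative, but CPM gave 4.41 for Ccnd2 over Ccnd1, 3.92 for Cdk4 over Cdk6, -1.24 for Ccne1 over Ccne2, 1.52 for Ccnb1 over Ccnb2 and 1.05 for Cdc25b over Cdc25c, and coding transcripts gave 0.34 for the last. Counting error limits low members most: Pttg1, with 381 and 384 reads, had a ratio interval of -0.06 to 0.36.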
